A study of Mus musculus with 120 samples.

Results

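The cytosolic ribosomal proteins were followed here across the livers of an F2 intercross. Members were all probe sets with a single gene symbol in the platform annotation that is spelled as a large subunit (Rpl or Rplp) or a small subunit (Rps) protein and a number. The rule gave 45 of 18193 genes with a symbol of their own, read by 98 of 45037 probe sets, 94 of 22626 on MOE430A and 4 of 22411 on MOE430B. Of these genes 24 belong to the large subunit (44 probe sets) and 21 to the small subunit (54 probe sets). Further probe sets, 0.451% of those on MOE430A and 8 on MOE430B, carry a ribosomal protein symbol beside other symbols and fell outside the rule. Genes of this family have many near-identical copies in the genome. Rplp1, Rpl5, Rpl3, Rpl10, Rpl10l, Rpl36a and Rpl36al had no member.

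The mice were 31 females and 29 males of a (C57BL/6J X BTBR) F2-ob/ob population. All lacked leptin through the ob mutation, were 14 weeks old and had been without food for 4 h, so that no lean animal entered any comparison. The F1 parents all came from C57BL/6J males and BTBR females, and the 60 mice had been picked from a larger panel by genotype. Each mouse gave 1 liver RNA, which was hybridized to 1 array of each type, and each mouse was a separate animal, so the spread below is the spread between mice.

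Ribosomal proteins are the protein part of the ribosome. The small subunit reads the messenger RNA and the large subunit joins the amino acids. The cell needs the proteins of a ribosome in matched amounts, and their messages share features: most vertebrate ribosomal protein messages begin with a C followed by a tract of C and T (U in RNA), the 5′ terminal oligopyrimidine tract, through which the mTORC1 pathway controls their translation. In liver, ribosome number is known to follow feeding and growth. Some members are paralogs with a tissue bias of their own, such as Rpl3l of striated muscle and Rpl39l of testis, and some have further roles, such as Rps6, the S6 kinase target, Rps27l, a p53 target, and Rpl11, which binds the p53 regulator Mdm2.

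Start sites are shown for the 4 genes whose probe sets mapped most strongly (Rps6, Rps9, Rpl14 and Rps25) and for Rps7. They are also shown for Rps10, Rpl35 and Rps18, 3 genes with some probe sets that varied closely with the group and others that did not. Whether the start site goes with joint variation was not tested. RefSeq promoters (GRCm38.p6) were found for 39 of the 45 genes. An unbroken run of 6 or more C or T on the strand of the gene, touching the 10 bases to either side of the annotated start, was held by 26 of the 39 genes (66.7%), against 33.5% of 27025 genes with a promoter of the same length. The letters CCGGAAG, on either strand of the 300 bases, were held by 19 genes (48.7%), against 9.93% of all genes. The reverse complement of that motif begins with C and T letters, so a match of one can overlap a match of the other. Each sequence runs 5′ to 3′ on the strand of the gene from 35 bases before to 25 bases after the annotated start, and capitals mark the run of C and T.

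Rps6 (chr4:86857343-86857402, minus strand): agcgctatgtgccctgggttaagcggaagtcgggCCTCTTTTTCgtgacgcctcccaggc
Rps9 (chr7:3704006-3704065, plus strand): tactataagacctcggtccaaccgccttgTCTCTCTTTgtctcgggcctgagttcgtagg
Rpl14 (chr9:120571482-120571541, plus strand): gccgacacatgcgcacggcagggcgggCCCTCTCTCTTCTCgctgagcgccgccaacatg
Rps25 (chr9:44407679-44407738, plus strand): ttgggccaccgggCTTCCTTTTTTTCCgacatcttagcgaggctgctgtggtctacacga
Rps10 (chr17:27635220-27635279, minus strand): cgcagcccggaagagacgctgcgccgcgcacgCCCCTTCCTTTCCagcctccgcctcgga
Rpl35 (chr2:39005107-39005166, minus strand): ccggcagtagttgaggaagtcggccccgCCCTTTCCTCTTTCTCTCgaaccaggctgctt
Rps18 (chr17:33955641-33955700, minus strand): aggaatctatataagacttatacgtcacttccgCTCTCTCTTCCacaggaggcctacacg
Rps7 (chr12:28635929-28635988, minus strand): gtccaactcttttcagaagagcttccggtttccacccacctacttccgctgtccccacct

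In Rps6 the run began 1 base before the annotated start and was 10 bases long, and in Rpl35 it was 18 bases long. Rps7 is shown as a gene with no run of 6 or more touching the 10 bases to either side of the annotated start. A run of C and T that lies farther before its start is left in lower case. A match is a description of the letters, and the annotated start can lie some bases from the start used in liver.

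Values were log2 expression values from RMA. A value of 1 probe set cannot be set against that of another as an amount of RNA, since probes differ in how well they bind. Mean levels of the 94 members on MOE430A ran from 3.71 to 12.74 with a median of 10.39, where the median of all probe sets was 7.04. Of these members 79 lay above that median and 63 at or above percentile 90 of the array. Most were therefore read far above the dim probe sets, while 15 were in the lower part of the range, and a gene could have members in both. Rps18, a protein of the head of the small subunit, had 6 probe sets with means from 4.52 to 11.54. Rps20, its neighbour in the small subunit head, had 4 with means from 3.71 to 10.43. The spread of a member across mice (SD) had a median of 0.19 on MOE430A, against 0.13 over all probe sets, and ran from 0.08 for Rps20 1450417_a_at to 0.58 for Rps9 1434624_x_at.

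The stalk proteins, which recruit elongation factors to the large subunit, were read at high values. Rplp0 had a lowest value of 10.69, a median of 11.19 and a highest of 11.71 across the 60 mice. Rplp2 had a lowest value of 10.38, a median of 11.20 and a highest of 11.76. For both genes the lowest mouse was mouse 474. Rps19, the small subunit protein mutated in Diamond-Blackfan anaemia, ran from 9.58 through a median of 10.34 to 10.86. Rpl11 ran from 10.31 through 10.84 to 11.45. Rps27, a zinc-finger protein of the small subunit, varied little, with a lowest value of 7.60, a median of 7.91 and a highest of 8.18. Rps4l, an autosomal copy of Rps4x, varied more widely, from 7.02 through 7.63 to 8.42. Rpl39, whose gene is on the X chromosome, ran from 8.36 through 8.55 to 8.99, and Rps4x 1416276_a_at, also X-linked, ran from 11.10 through 11.52 to 11.86. The paralogs with a bias to other tissues had low values, with a median of 6.20 for Rpl3l and 4.92 for Rpl39l, and the spread of both (SD 0.13) was near that of the median probe set.

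The members on MOE430A varied together from mouse to mouse. The mean of Pearson's r over the 4371 pairs was 0.25 (SD over pairs 0.37), where the mean over all pairs of probe sets on the array was 0.02. An r of 0.5 or more was seen for 31.5% of the pairs and an r below 0 for 29.8%. Pairs share arrays and several probe sets share a transcript, so these are descriptions and no test was made. Large subunit members averaged r = 0.31 among themselves, small subunit members r = 0.20, and pairs across the subunits r = 0.26. The mean rescaled profiles of the subunits followed each other at r = 0.97 over the 60 mice. Among females alone the mean r was 0.24 and among males alone 0.25.

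The agreement depended on the level of the probe set. Among the 24 members with the lowest values (3.71 to 7.60) the mean pairwise r was 0.09, and among the 24 with the highest (11.48 to 12.74) it was 0.63. The 23 members next above the lowest gave 0.37 and the 23 next below the highest 0.51. Against the mean rescaled profile of the other members, 43 of the 94 reached r = 0.7 or more and 18 were below 0. Of those 18, 17 were among the 24 lowest levels, 6 had another probe set of the same gene at r = 0.7 or more, and 4 were of genes with 1 probe set. The highest r values were those of Rps19 (0.91), Rpl37a 1460543_x_at (0.90), Rpl10a (0.89), Rps10 1434854_a_at (0.88) and Rpl35 1416243_a_at (0.88). Rpl37a, Rpl10a and Rpl35 are proteins of the large subunit, Rpl35 lying near the exit of the peptide tunnel, and Rps10 and Rps19 are in the head of the small subunit. The lowest were those of Rpl3l (-0.42), Rps20 1421935_at (-0.40), Rpl35 1454833_at (-0.36), Rpl12 (-0.35) and Rpl39l (-0.30).

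**Figure D1:**
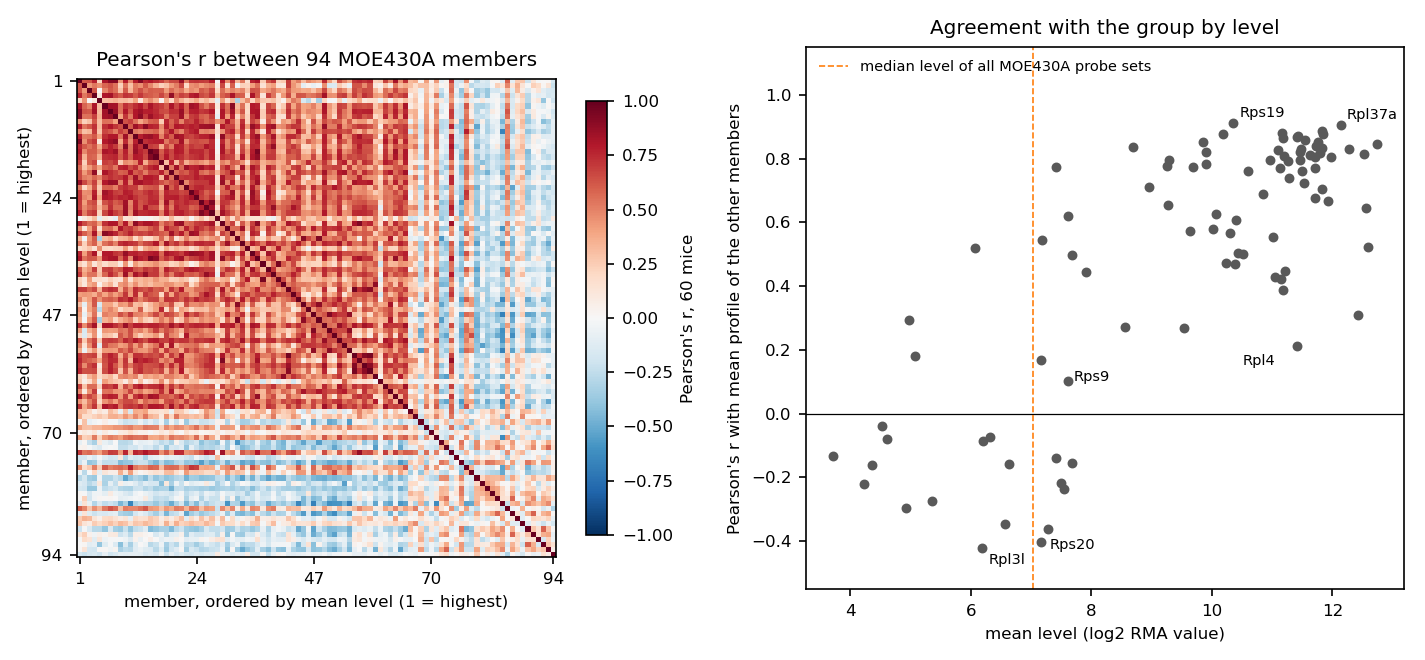
Left, Pearson's r across 60 mice between the 94 ribosomal protein probe sets of MOE430A, ordered by mean level from the highest (1) to the lowest (94). Right, mean level (log2 RMA value) of each probe set on the x axis and its r with the mean rescaled profile of the other members on the y axis; the 24 members of lowest level have a median r of -0.14 and the 24 of highest level 0.81.

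Probe sets of a single gene showed the same split. Over all pairs of probe sets that shared a gene and an array type, r ran from -0.62 to 0.96 with a median of 0.62, and 27 pairs were below 0. The 3 probe sets of Rps28 were read at means between 11.82 and 12.74, and their r values were between 0.89 and 0.92. The 3 of Rpl7 were likewise close (0.89 to 0.93), as were the 4 of Rpl13a (0.75 to 0.92). In Rps9, a protein of the body of the small subunit, the 3 probe sets had r values between -0.62 and 0.08. Both probe sets of Rps6 had r = 0.18 and both of Rps4x r = 0.02. Probe sets named for 1 gene thus often did not carry 1 profile. Ribosomal protein genes have processed copies elsewhere in the genome to which probes of bright and dim members alike may also bind. The part of such binding in these r values was not tested, and the values of members, the dim ones included, are uncertain.

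The 4 members on MOE430B did not form such a group. Their mean pairwise r was 0.005 (SD over 6 pairs 0.29), where all probe sets of that array averaged 0.009. Their mean rescaled profile had r = 0.38 with that of the MOE430A members. Only Rpl22 and Rps3 had members on both array types. Rpl22 1453118_s_at of MOE430B had r = 0.53 with Rpl22 1416603_at and r = 0.14 with Rpl22 1448398_s_at of MOE430A. For Rps3, r with the MOE430A probe set was 0.49 for 1455600_at and -0.14 for 1447563_at. The fourth MOE430B member, Rps16, was read at a median of 5.05 (lowest 4.65, highest 5.40).

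The profile of the MOE430A members set some mice apart. Mouse 474, a female, had the lowest profile (-1.22 SD units), followed by mouse 209 (-0.83) and mouse 61 (-0.79), and mouse 559 (1.12) and mouse 46 (1.03) had the highest. Mouse 474 had the lowest value of all mice for 37 of the 94 members and mouse 559 the highest for 21. Both were among 6 mice that had an array less like the rest of its type, by a median correlation over 3 median absolute deviations under that of a typical array. For mouse 474 this held for the MOE430A array alone, and its profile over the MOE430B members was 0.78. The mean pairwise r was 0.25 without mouse 474 and 0.25 without the 6 mice. The profile had r = 0.15 with the first principal component of all other MOE430A probe sets, which took up 20.4% of their variance, and after that component was removed the mean pairwise r was 0.27.

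The hepatocyte marker Alb was read at a mean of 14.10, above 99.99% of the MOE430A probe sets. Cell markers were taken from lists of genes. All 6 hepatocyte markers, 8 of 8 Kupffer cell, 6 of 6 sinusoidal endothelium and 5 of 7 acinar markers had probe sets on the arrays. These counts describe the arrays and do not show that a marker was expressed. The summed values of the marker lists on MOE430A (log2 of the sum) overlapped between the sexes: 16.62 to 17.10 in females and 16.66 to 17.10 in males for hepatocytes, 11.67 to 13.24 in females and 11.53 to 12.80 in males for Kupffer cells, 11.72 to 11.94 in females and 11.62 to 12.32 in males for sinusoidal endothelium, and 10.90 to 11.23 in females and 10.99 to 12.64 in males for pancreatic acinar cells. Their profiles had r values with the ribosomal protein profile of 0.05 for hepatocytes, 0.32 for Kupffer cells, 0.004 for sinusoidal endothelium, -0.30 for stellate cells, -0.03 for cholangiocytes, -0.15 for B cells, -0.28 for T cells, 0.02 for erythroid cells, 0.05 for acinar cells and -0.31 for adipocytes. The part of these cell types in the profile was not tested. In bulk tissue fewer cells of a type and less RNA per cell cannot be told apart.

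Other genes of the pathway followed the profile to different degrees. Ribosomal proteins outside the rule were read by 7 probe sets of Fau, Rpsa, Rpl22l1 and Rpl7l1, of which 6 were on MOE430A. As a group these proteins had r = 0.83, and the MOE430A probe sets with several symbols had r = 0.89. Mitochondrial ribosomal proteins, 127 MOE430A probe sets, had r = 0.72, ATP synthase subunits r = 0.59 and subunits of RNA polymerase I, which makes the ribosomal RNA precursor, r = 0.51. Ribosome biogenesis factors (0.30), initiation factors (0.28), elongation factors and other 5′ TOP genes (0.15) and genes of mTORC1 signalling (0.13) were lower. These r values are across 60 mice whose arrays all lists share. By the linkage threshold given next, 15.9% of all MOE430A and 15.8% of all MOE430B probe sets mapped. Of the lists, elongation factors and other 5′ TOP genes had 5 of 33 mapped (15.2%), initiation factors 10 of 79 (12.7%) and biogenesis factors 13 of 64 (20.3%). RNA polymerase I had 7 of 27 (25.9%), mTORC1 signalling 7 of 43 (16.3%), mitochondrial ribosomal proteins 19 of 156 (12.2%) and ATP synthase 9 of 31 (29.0%).

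Linkage asked which members differed by genotype at a place in the genome. Interval mapping gives a LOD score, the log10 ratio of the likelihood with and without a locus there, at markers and 5-cM steps of 19 autosomes, and 3.4 was the threshold. Few members reached it. On MOE430A 8 of 94 members did (8.51%), against 15.9% of all probe sets of that array, and on MOE430B 2 of 4, against 15.8%. When the mice were permuted 5 times, between 8.35% and 13.4% of all MOE430A probe sets reached 3.4. The share of members lay within these values. They are shares of the whole array and do not give the spread for a set of 94 members that vary together. The FDR over all probe sets at 3.4 was 0.698, from 7131 observed probe sets and 4975 in the mean permutation, and single calls near the threshold are uncertain. The median highest LOD score of the MOE430A members was 2.37, against 2.61 over all probe sets. At a LOD score of 5.0 there were 4 members on MOE430A (2.43% of all probe sets) and none of the 4 on MOE430B (1.78%). Without mouse 474 the count at 3.4 was 18 of 94 on MOE430A, against 19.8% of all probe sets, and included all 8.

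With all 60 mice, most of the mapping members were read at modest values. Of the 24 members of lowest level 6 mapped, of the 23 next 1, of the 23 after these 1 and of the 24 of highest level 0. The share of all probe sets that mapped in the same ranges of level was 15.4%, 16.5%, 19.8% and 19.7%, from low to high. Without mouse 474 the counts in these ranges were 8, 4, 2 and 4 members, from low to high. Beside them mapped 18.8%, 21.2%, 26.2% and 26.4% of all probe sets. The lowest range still held the most mapping members, while the highest range rose from 0 to 4.

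**Figure D2:**
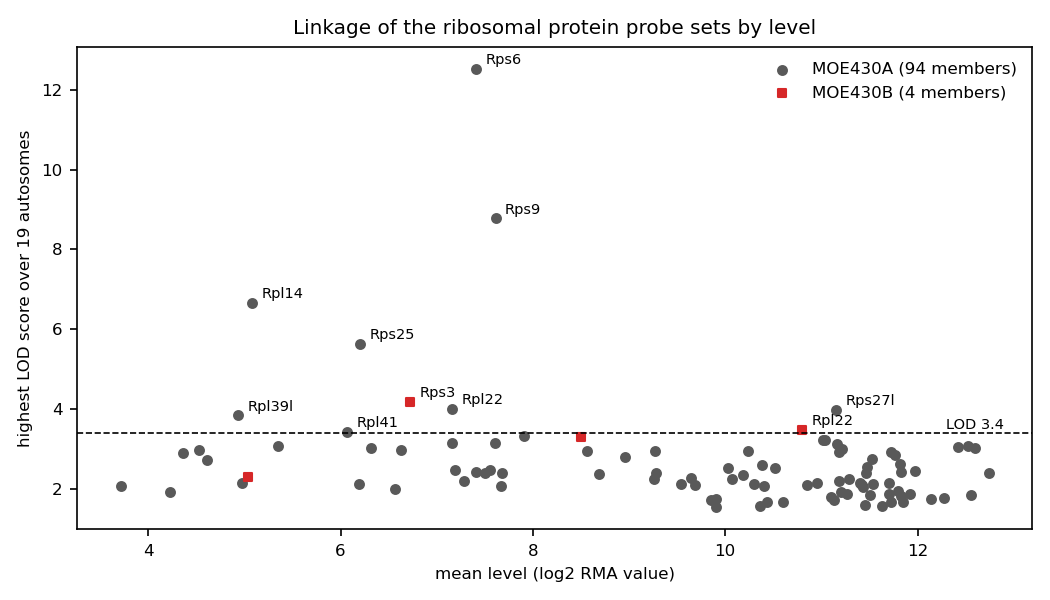
Mean level (log2 RMA value) of the 98 ribosomal protein probe sets on the x axis and the highest LOD score of each over 19 autosomes on the y axis, with MOE430A members as grey circles, MOE430B members as red squares and the threshold of 3.4 as a dashed line. The members above the line are named, and Rps6 stands highest at 12.5.

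Rps6 encodes the small subunit protein phosphorylated by S6 kinase downstream of mTORC1, and its probe set 1416142_at had the highest LOD score of the members, 12.5 on Chromosome 4 at 50 cM, the chromosome of the gene. Genotypes are named by the letters of the deposited calls, since the sources used here do not give the founder of each letter. AA mice had values of 7.40 to 7.91 (median 7.60), AB mice of 7.10 to 7.63 (median 7.41) and BB mice of 7.03 to 7.41 (median 7.12). The groups averaged 7.61 ± 0.15 (SD, n = 16), 7.40 ± 0.12 (n = 31) and 7.16 ± 0.13 (n = 13). AA and BB mice hardly overlapped, with a highest BB value just above the lowest AA value. The other probe set of the gene, 1453466_at, was read near the bottom of the array (median 4.22) and had a LOD score of 0.25 at that place.

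Rps9 1434624_x_at reached 8.78 at 0 cM of Chromosome 7, again the chromosome of the gene. AA mice ran from 7.31 to 8.69 (median 8.05), AB mice from 6.37 to 8.32 (median 7.73) and BB mice from 6.41 to 7.77 (median 6.95). The means were 8.03 ± 0.40 (SD, n = 19), 7.66 ± 0.46 (n = 27) and 6.94 ± 0.36 (n = 14). BB mice overlapped AA mice only between 7.31 and 7.77. The other probe sets of Rps9 did not share it, with LOD scores at that place of 1.29 for 1426958_at and 0.34 for 1433689_s_at.

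Rpl14, a large subunit protein, was read at low values by its single probe set. It reached 6.65 at 110.7 cM of Chromosome 9, which carries the gene, with means of 5.25 ± 0.21 in AA (SD, n = 14), 5.09 ± 0.14 in AB (n = 31) and 4.89 ± 0.12 in BB (n = 15) mice. Values ran from 4.89 to 5.60 in AA, from 4.87 to 5.43 in AB and from 4.69 to 5.05 in BB mice, so neighbouring groups overlapped.

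Rps25, a small subunit protein that several viral internal ribosome entry sites depend on, reached 5.64 at 25 cM of Chromosome 4, while the gene is on Chromosome 9. Here the heterozygotes stood apart: AB mice averaged 6.30 ± 0.10 (SD, n = 22; lowest 6.03, highest 6.47), AA mice 6.12 ± 0.11 (n = 19; 5.87 to 6.27) and BB mice 6.17 ± 0.10 (n = 19; 5.98 to 6.30). When Haley-Knott regression took sex into account its highest LOD score was 3.88, and with the first principal component of the array it was 4.36.

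The remaining mapping members lay close to the threshold. On MOE430B, Rps3 1455600_at, a small subunit protein at the messenger RNA entry, had 4.17 on its own Chromosome 7 at 58 cM, with means of 6.87 ± 0.17 in AA (SD, n = 9), 6.76 ± 0.16 in AB (n = 31) and 6.61 ± 0.11 in BB (n = 20) mice. Rpl22 1448398_s_at had 4.00 on Chromosome 10 at 45 cM, and Rpl22 1453118_s_at of MOE430B 3.48 on Chromosome 17 at 15 cM, so the probe sets of that gene, which lies on Chromosome 4, mapped to different places. Rpl39l had 3.84 on Chromosome 11 at 20 cM by the EM algorithm but 2.80 there by Haley-Knott regression. Rpl41 1454639_x_at, for one of the shortest proteins of the large subunit, had 3.43 on Chromosome 4 at 46.6 cM, while its other 3 probe sets had at most 1.69 at that place. Just under the threshold were Rps27 with 3.32 and Rps3 1447563_at with 3.30, and just above it Rpl41 with 3.43.

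Rps27l was read by 3 probe sets with means between 11.04 and 11.18, which followed each other at r of 0.80 to 0.95. On Chromosome 2, 1435429_x_at had 3.98 at 20 cM, 1450925_a_at 3.22 at 25 cM and 1423254_x_at 2.91 at 19.6 cM, while the gene is on Chromosome 9. For 1435429_x_at, AB mice ran from 10.98 to 11.59 and averaged 11.25 ± 0.18 (SD, n = 27), AA mice from 10.72 to 11.37 and averaged 11.04 ± 0.18 (n = 13), and BB mice from 10.86 to 11.32 and averaged 11.09 ± 0.10 (n = 20). The groups overlapped widely. When Haley-Knott regression took sex into account all 3 passed, with highest LOD scores of 5.64, 4.76 and 4.09 in that order. With the first principal component in its place they were 4.03, 3.05 and 2.83. By EM without the mice with an array apart they were 3.59, 2.66 and 3.42. These are the highest scores over all autosomes, and their place was not recorded. On MOE430A 1435429_x_at was the single member to map within 10 cM of 30 cM on Chromosome 2, where 2.36% of all MOE430A probe sets mapped. Rps7 1419364_a_at had 3.21 on its own Chromosome 12 at 20 cM, with 10.83 ± 0.13 in AA (SD, n = 11), 11.03 ± 0.21 in AB (n = 35) and 11.13 ± 0.19 in BB (n = 14) mice.

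Over both array types, 3 of the 8 mapping members of MOE430A and 1 of the 2 of MOE430B mapped to the chromosome of the gene, where the share was 19.0% of the mapping MOE430A probe sets with a known chromosome and 16.3% of those of MOE430B. Rps4x and Rpl39 are on the X chromosome, which carried no marker, so linkage there could not be scanned.

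**Figure D3:**
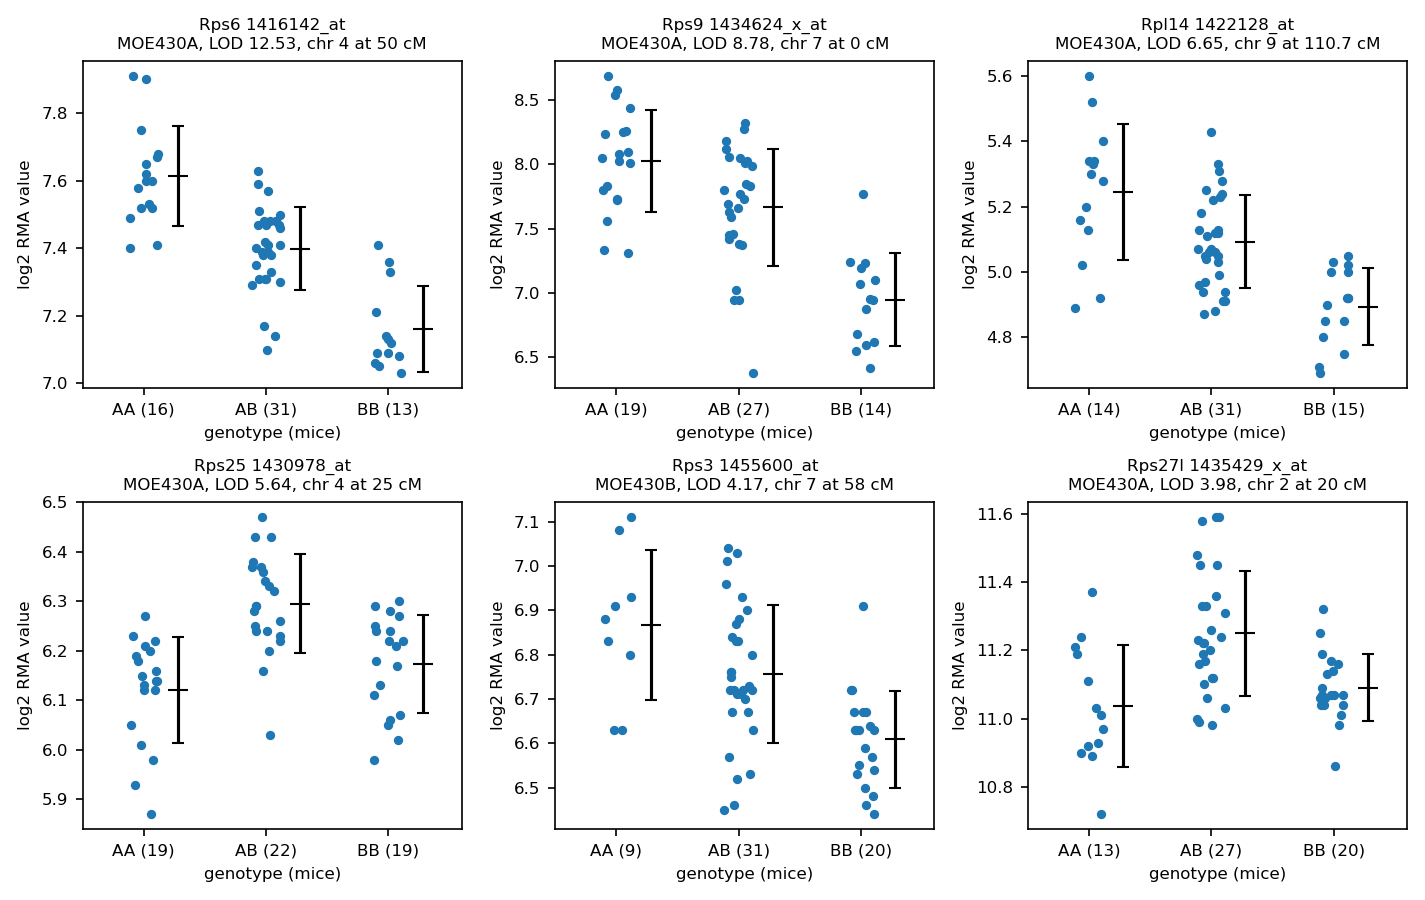
Log2 RMA values of 6 mapping probe sets by the most likely genotype at the place of the highest LOD score, each point a mouse, with the number of mice in parentheses and bars for the mean ± SD. AA, AB and BB mice step down in order for Rps6, Rps9, Rpl14 and Rps3, while AB mice are highest for Rps25 and Rps27l.

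Females had slightly lower values than males for most members, but few differences passed the test. The fitted difference, female minus male, was below 0 for 85 of the 98 members (86.7%), where 54.5% of all probe sets were below 0, and its median was -0.05 for the members and -0.01 for all. With limma and Benjamini-Hochberg adjustment over all 45037 probe sets, 2 members were lower in females at an adjusted p under 0.05 (0.4% of all probe sets) and 0 were higher (1.01%). At a p under 0.05 before adjustment there were 25 members, 25.5%, against 15.9% of all probe sets. Members share mice and varied together, and several read the same gene, so these are not counts of independent members.

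Rpl35 1436840_x_at showed the largest difference. Its values ran from 9.21 to 10.01 (median 9.56) in females and from 9.05 to 10.24 (median 9.83) in males, and the difference was -0.24 ± 0.06 (SE; limma, adjusted p = 0.041). The sexes overlapped, with the lowest value of all in a male. The other 5 probe sets of Rpl35 were also lower in the mean, by 0.21, 0.16, 0.15, 0.08 and 0.03, but did not pass (adjusted p of 0.057 to 0.717). Rps25 1430978_at, the probe set mapped above, ran from 5.87 to 6.37 (median 6.18) in females and from 6.02 to 6.47 (median 6.28) in males, a difference of -0.11 ± 0.03 (SE; limma, adjusted p = 0.034). Next in order of p, and short of the threshold on the adjusted p, were Rpl35 1455950_x_at, Rpl13a 1455001_x_at (-0.15) and Rps18 1455572_x_at (-0.19). Rps9 1433689_s_at (0.14) and Rpl7 1426162_a_at (0.12) had the largest positive values, and neither passed.

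The profile of the MOE430A members averaged -0.14 ± 0.51 SD units in females (SD, n = 31; -1.22 to 1.12, median -0.29) and 0.15 ± 0.48 in males (n = 29; -0.79 to 1.03, median 0.12). Without mouse 474 the females averaged -0.10 ± 0.47 (n = 30). A measure of RNA quality also differed between the sexes. The control probe sets for the 3′ end of Actb minus those for its 5′ end averaged 0.69 ± 0.22 in females and 0.88 ± 0.20 in males (SD), and those of Gapdh 0.40 ± 0.17 in females and 0.55 ± 0.18 in males. The part of RNA quality in the sex difference was not tested beyond one fit with the Actb value as a covariate, an alternative added after the data had been seen. There 0 members passed (smallest adjusted p 0.526), 84 of 98 members stayed below 0, with a median difference of -0.05 as in the fit without it, and the number of all probe sets called was 77, against 635. Without the 6 mice with an array apart 7 members were lower in females, Rpl35 1436840_x_at and 1455950_x_at, Rps25, Rps9 1426958_at, Rpl13a 1455001_x_at, Rps18 1455572_x_at and Rpl41 1455578_x_at. When the first principal component was fitted too, the single call was Rpl4, a large subunit protein that lines the peptide tunnel (-0.23 ± 0.05, SE).

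**Figure D4:**
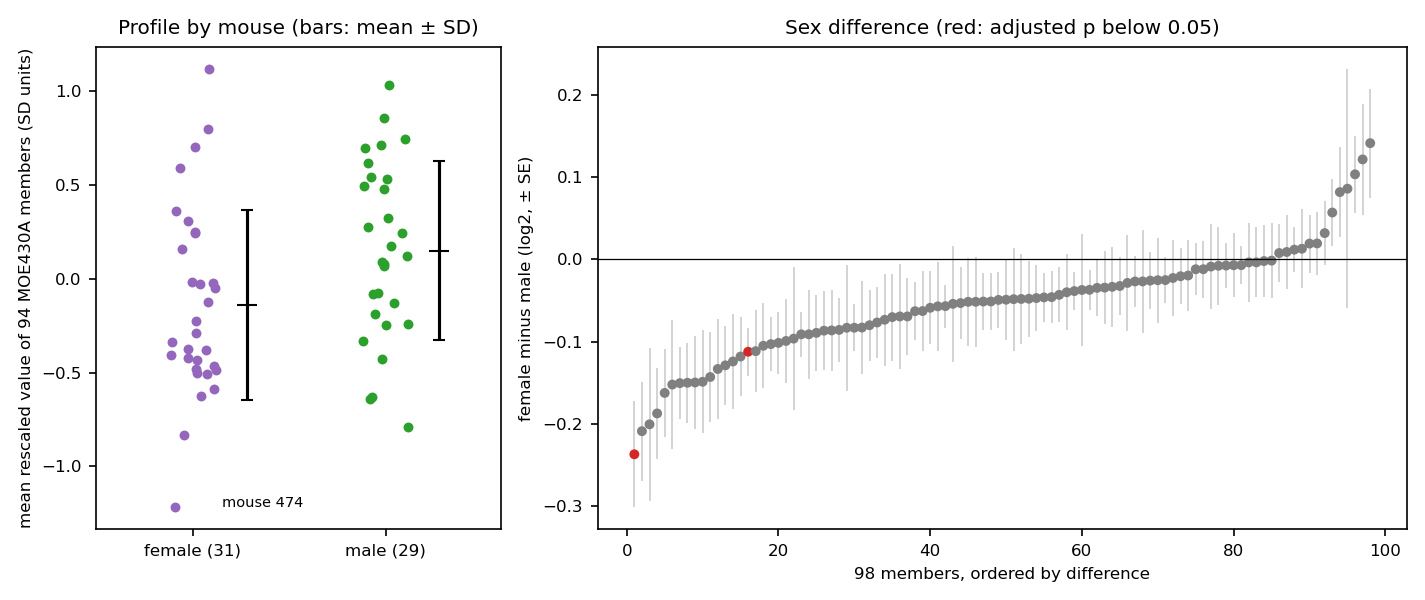
Left, the mean rescaled value of the 94 MOE430A members in each mouse, in SD units, for 31 females and 29 males, with bars for the mean ± SD. Right, female minus male (log2, ± SE) for the 98 members in order, with the 2 of adjusted p under 0.05 in red; 85 lie below 0.

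In the other lists, cell markers included, few genes differed by sex, and they are named here because the counts are small. Over all probe sets 1.01% were higher and 0.4% lower in females. Of 79 probe sets of initiation factors, 4 were higher in females, 3 of them of Eif2s3x, whose gene is on the X chromosome, and 1 of Eif4a2. Rrs1, a ribosome assembly factor (1 of 64 probe sets), and Eif4ebp2, a translation repressor under mTORC1 (1 of 43), were higher in females, and Polr1e of RNA polymerase I was lower (1 of 27). Mrpl9 was higher and Mrpl44 lower in females among 156 probe sets of mitochondrial ribosomal proteins, and Atp5b was higher among 31 of ATP synthase. Among the cell markers, Serpina1c of the hepatocyte list was lower in females (-0.22 ± 0.05, SE; 1 of 12 probe sets) and Ighm of the B cell list higher (0.37 ± 0.09, SE; 1 of 16). Of 33 probe sets of elongation factors and other 5′ TOP genes and 7 of ribosomal proteins outside the rule 0 passed (limma). The nearest was a probe set of Rpsa, a small subunit protein also known as the laminin receptor (-0.22 ± 0.06, SE; limma, adjusted p = 0.054).

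The last comparison asked whether members followed the diabetes traits of the mice: plasma glucose, insulin (log10), plasma triglyceride and body weight at 10 weeks, and liver triglyceride. None of the members was associated with any of them by limma with sex as a covariate. The share of all probe sets called was 0% for glucose, plasma triglyceride and body weight, 0.0289% for insulin and 0.191% for liver triglyceride. At a p under 0.05 before adjustment there were 5 members for glucose (4.63% of all probe sets), 7 for insulin (7.67%), 3 for plasma triglyceride (4.92%), 2 for body weight (5.54%) and 10 for liver triglyceride (9.05%), so that the counts among 98 members were near those of the array. Values were available for 60, 57, 56, 60 and 59 mice in that order. The mice were 14 weeks old when the liver was sampled, so the traits of 10 weeks were measured before the RNA.

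The members with the smallest p for each trait are given as values only, as log2 change per SD of the trait with its SE. For glucose these were Rpl41 1454639_x_at (0.04 ± 0.01), Rps24 1455195_at (-0.05 ± 0.02) and Rps2 (0.04 ± 0.02). For insulin they were Rps2 (-0.05 ± 0.02), Rpl37 (0.05 ± 0.02) and Rps4x 1420303_x_at (-0.04 ± 0.02). Rps2 and Rps24 are small subunit proteins and Rpl37 a large subunit protein. For plasma triglyceride they were Rpl37 (-0.05 ± 0.02), Rps3 1455600_at (0.05 ± 0.02) and Rps6 1453466_at (-0.03 ± 0.02), and for body weight Rps4x 1420303_x_at (-0.05 ± 0.02), Rpl12 (-0.04 ± 0.02) and Rpl22 1453118_s_at (0.05 ± 0.03). For liver triglyceride they were Rps24 1436064_x_at (0.06 ± 0.02), Rps20 1456373_x_at (0.08 ± 0.03) and Rps29 1438859_x_at (0.06 ± 0.02). The smallest adjusted p values over the members were 0.961, 0.247, 0.993, 0.83 and 0.258 for glucose, insulin, plasma triglyceride, body weight and liver triglyceride.

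As a whole the profile had r = 0.12 with glucose, -0.07 with insulin, 0.09 with plasma triglyceride, -0.04 with body weight and 0.13 with liver triglyceride over both sexes. Within the sexes r was 0.12 in females and -0.19 in males for glucose, -0.12 in females and 0.08 in males for plasma triglyceride, -0.08 in females and 0.22 in males for body weight, and 0.14 in females and 0.05 in males for liver triglyceride. For insulin it was 0.03 in females and near 0 in males. With sex in the fit 60 of the 98 members were negative for glucose, so the sign of the pooled r did not carry over. The interaction of trait and sex was called for 0 members and 0% of all probe sets for each trait (limma), with 3, 2, 0, 1 and 2 members at a p under 0.05 before adjustment in the same order. These values do not show that members and traits are unrelated.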

How the data were processed

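Liver RNA of 60 F2-ob/ob mice was measured on MOE430A and MOE430B arrays. Cell intensities came from MAS5 and RMA gave the log2 expression values that the authors deposited, with no version of RMA stated in the sources used. Since RMA was run on each array type apart, each was read against its own background, and 100 probe sets present on both kept their MOE430A value. Insulin was deposited as log10 values, other traits in their own units, and genotypes as letters at 194 markers. The number of mice limits the precision.

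A hidden Markov model gave genotype probabilities (Haldane map, error rate 0.0001). Interval mapping by EM (545 test points, tolerance 0.0001, 1000 iterations at most) was run on all probe sets in Python 3.11.15 with numpy 2.4.6 and numba 0.67.0, with 5 permutations of the mice. The study's methods name the LOD threshold of 3.4. Sex and traits were fitted with limma 3.58.1 in R 4.3.3, with Benjamini-Hochberg adjustment over both array types. The scan and the fits were tested on simulated data. The rescaled profile is the mean of members set to mean 0 and SD 1. Sequences are RefSeq's.

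Members and gene lists were chosen with earlier results of these data known. Named members were, per array type, the 8 highest LOD scores and all of 5.0 or greater, the 5 highest and 5 lowest r with the profile, called members for sex and traits or the 3 smallest p for each trait, 21 fixed genes, and genes on both array types. Alternatives changed the mapping method, test points, markers, covariates, mice, thresholds, filter on low values, correlation, trait scale and probe sets per gene. RT-qPCR values and mice without arrays were not used here.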

Additional observations from a re-analysis of the deposited data

How the results depend on the processing

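On MOE430A the count of mapping members was 8 of 94, against 15.9% of all probe sets. It was 13 when Haley-Knott regression took sex into account (14.2% of all probe sets), and 14 without the mice with an array apart (19.7%). Without mouse 474 it was 18 (19.8%). At a LOD score of 5.0 it was 4 (2.43%), and it was 4 with 1 probe set per gene, a setting not run on all probe sets. The last 2 counts follow from the stricter threshold and the fewer probe sets. For the rest the cause was not tested. On MOE430B the count was 2, and it was 1 at markers alone, 0 with the table of 145 markers, 1 when Haley-Knott regression took the first principal component into account, 1 without the mice with an array apart, 1 without mouse 474, 0 at a LOD score of 5.0 and 1 with 1 probe set per gene. Members lower in females were 2, and they were 1 when the first principal component was fitted too, 7 without the mice with an array apart, 4 among probe sets above the median level and 0 with the 3′ minus 5′ value of Actb as a covariate, and the cause was not tested. Over all probe sets, 455 were higher and 180 lower in females, against 115 and 133 with the first principal component, 1283 and 568 without the mice with an array apart, 680 and 298 without mouse 474 and 50 and 27 with Actb. The alternatives without mouse 474 and with Actb were added after the data had been seen. Beside these 16 member counts, 60 other values stayed within the spread or 1.5 times the count, all those of trait associations and of the mean pairwise r among them. For the mean pairwise r that spread was the SD over pairs, 0.37 on MOE430A and 0.29 on MOE430B with all mice. Only a large change would have passed it. Trait associations were 0 members in each setting, with few or no probe sets called on the arrays, so these counts had little room to move. For named members 82 values kept their side of the threshold, 19 fell short of it, 1 passed it and none changed direction. No paired analysis was possible because mouse numbers are shared between the array types alone, whose levels were not tested against each other, and the sexes and genotype groups that were compared share no mouse. Probe sets near background, 15 of the 94 on MOE430A below the median level, limit what low members can show.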
